A study of Homo sapiens with 16 samples.

Results

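The genes of the collagen family were followed across 16 RNA-seq libraries of RWPE1, an established human cell line from prostate epithelium. Members were the genes whose symbol is COL, a number, A and a digit. This rule found 43 collagen chain genes among the 20166 gene symbols of the deposited table. COL11A2 stood on 7 rows, and the row with the highest mean was used, since the other 6 reached a group mean of at most 0.59. COL26A1 was not analysed here. The rule used symbols, and measured values entered only in the choice of the COL11A2 row.

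All groups were RWPE1 cells that had been engineered and then snap frozen. The cells carried an empty vector, an altered pTRIPZ (6 libraries, replicates 1 to 6), overexpressed a wild-type construct (6 libraries, replicates 13 to 18) or overexpressed the T164A mutant of that construct (4 libraries, replicates 91 to 94). The labels do not say whether each line was a clone or a pool, how long the constructs were expressed, or whether libraries of a group came from separate cultures. The p-values therefore cover no more than the spread among the libraries at hand, and that spread may be technical.

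Collagen chains wind around each other into long helices, and many collagens need the products of several genes for a complete molecule. Fibrillar collagens such as types I, III and V form cables and are mainly known from stromal cells, while type IV forms the network of basement membranes. In epithelia with a basal layer, type XVII is a transmembrane part of the hemidesmosome and type VII forms the anchoring fibrils beneath it, so these are the collagens most closely tied to basal cells. Type VI forms beaded filaments near the basement membrane, and the FACIT group (fibril-associated collagens with interrupted helices) decorates other fibrils.

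Values are the deposited log2 values. A mean over the libraries of a group is given with its SD, a difference between groups is in log2 units with its limma standard error (SE), and a chain is said to rise or fall when its Benjamini-Hochberg adjusted p over all 20166 symbols was below 0.05. Estimated depth was 12300000 to 19200000 reads per library, and 3 reads corresponded to 2.30 on the deposited scale. Group means below that floor are not told apart from 0, and folds against them are given as bounds. All folds are on the deposited scale. The 6 basal cell markers examined (KRT5, KRT14, KRT15, KRT17, TP63 and NGFR) lay at or above the floor in all groups. Their summed level was 17.4 to 17.7 in vector, 16.7 to 17.2 in wild-type and 16.02 to 16.33 in T164A libraries. In wild type 5 fell and 0 rose, beside 24.5% and 21.0% of all symbols. In T164A 4 fell and 1 (NGFR, by 2.21) rose, beside 27.2% and 37.1%. The 6 luminal markers had a summed level of 4.59 to 6.21 in vector, 15.3 to 16.4 in wild-type and 8.09 to 8.12 in T164A libraries. In wild type all 6 rose, beside 21.0% of all symbols. In T164A 1 rose and 2 fell, beside 37.1% and 27.2%, and 3 lay below the floor in every library. Of these 2 falls, 1 had means below the floor in both groups. The other was from 3.27 in vector to 2.04 in T164A, below the floor, and the groups overlapped. The T164A sum lay near the level of the 1 gene that rose, at 7.97. In bulk RNA, fewer cells of a type and less RNA per cell cannot be told apart. Within groups, wild-type replicate 14 and T164A replicate 93 lay farther from the other libraries of their group than those did from each other, and vector replicates 1 and 2 lay close together. Over 8842 well-expressed genes the root mean square difference was 0.19 to 0.28 for wild-type replicate 14. It was 0.27 to 0.30 for T164A replicate 93. Between vector replicates 1 and 2 it was 0.10, against 0.19 to 0.20 between these and the other vector libraries. Those other vector libraries differed among themselves by 0.10 (replicates 4 and 6) to 0.21 (replicates 3 and 5).

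Of the 43 chains, 39 reached the floor in the mean of at least 1 group, and COL1A2, COL6A5, COL15A1 and COL22A1 lay below it in every group. In the vector cells, the highest levels per kilobase of exon were those of COL17A1, at 11.41 ± 0.21 (log2 per kb, SD, n = 6), and COL7A1, at 10.81 ± 0.11. COL4A5, a basement membrane chain, followed at 9.38 ± 0.22, then the FACIT chain COL16A1 at 8.83 ± 0.09 and the fibrillar chains COL5A1 at 8.29 ± 0.19 and COL1A1 at 8.10 ± 0.21. COL5A1 and COL1A1 do not differ beyond their spread, and each of the other neighbours in this order does. The chains that lead the order in vector are thus the hemidesmosomal, anchoring fibril and basement membrane chains, and the same 2 chains, COL17A1 and COL7A1, also led in wild-type cells (11.07 ± 0.17 and 10.54 ± 0.17 per kb, n = 6) and in T164A cells (11.503 ± 0.09 and 10.25 ± 0.24 per kb, n = 4).

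**Figure D1:**
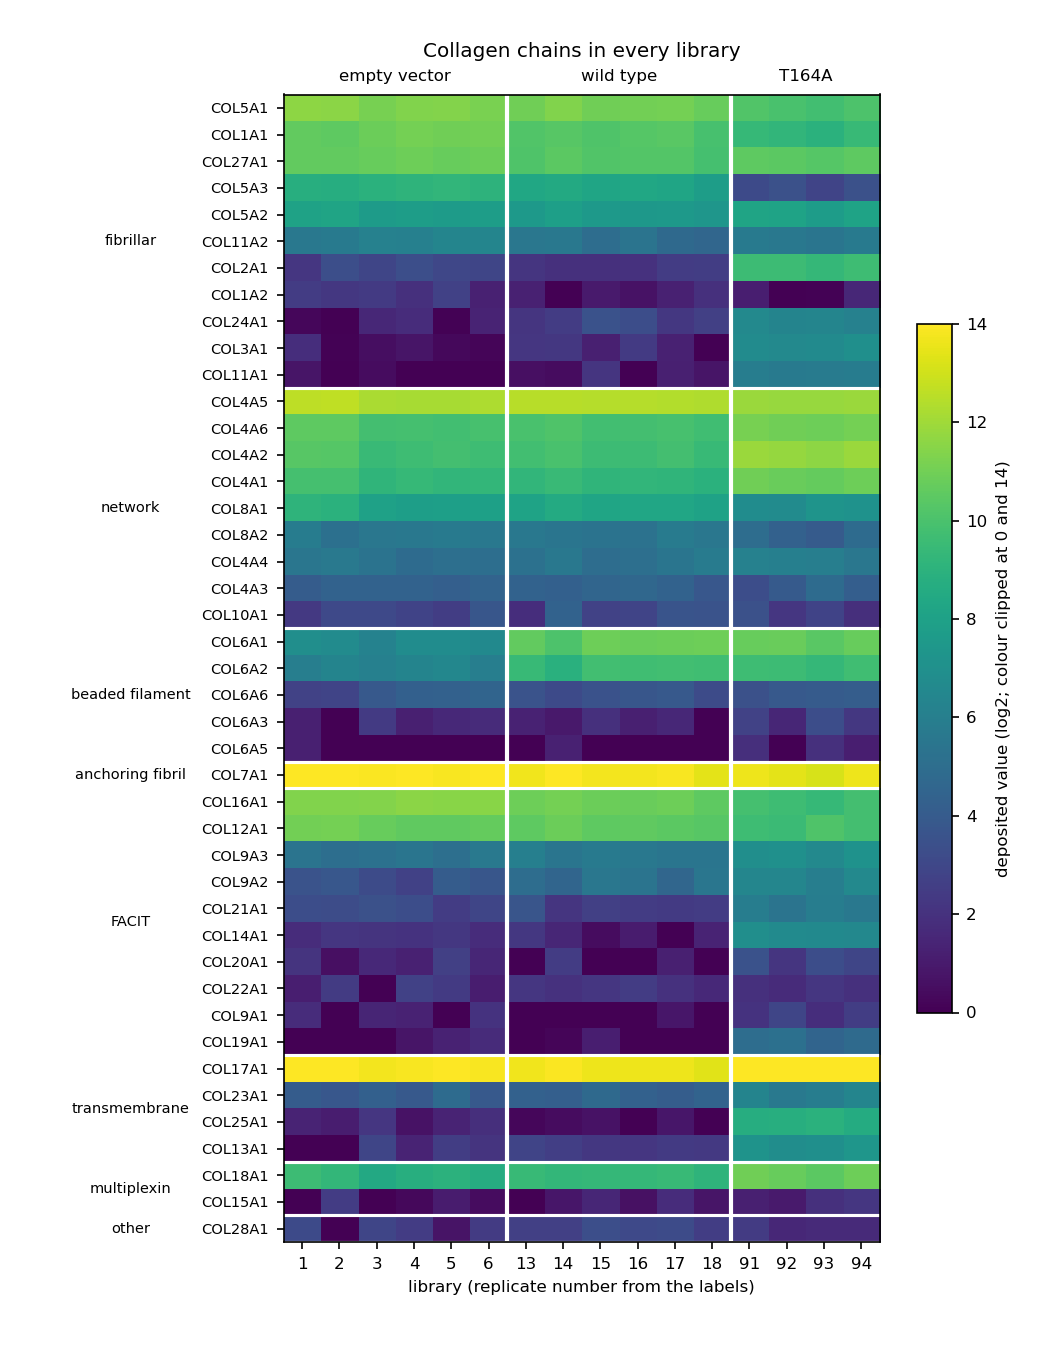
Deposited log2 value of the 43 collagen chains (rows, grouped by collagen class) in each of the 16 libraries (columns, numbered as in the labels), with colour clipped at 0 and 14. COL6A1 and COL6A2 are bright in all wild-type and T164A libraries, while a set of rows that includes COL2A1, COL3A1, COL25A1 and COL13A1 is bright in the 4 T164A columns only and COL5A3 is dark there.

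The first comparison set cells with the wild-type construct against the empty vector. Of the 43 chains, 5 rose and 16 fell, against 21.0% and 24.5% of all symbols, so the share called in either direction, 21 of 43, was near the 45.5% of all symbols. COL6A1, COL6A2, COL9A2 and COL24A1 had fitted rises of 2-fold or more, 9.3% of the chains beside 7.64% of all symbols. The vector mean of COL24A1 was below the floor, so its rise is bounded only as at least 1.35-fold, and the fifth rise, of COL18A1, was 0.36. Of the 16 falls, 5 (COL1A2, COL9A1, COL14A1, COL20A1 and COL25A1) concerned chains below the floor in both groups and have no fold, and they were the 5 chains with a fitted fall of 2-fold or more, beside 1.25% of all symbols. The remaining 11 falls were of 0.24 to 0.90. The median difference was -0.17 over the 43 chains and -0.05 over all symbols. Groups did not overlap for 9 of the 21 called chains, and the share over all called symbols was not counted.

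The second comparison set the T164A mutant against the same vector libraries. Here 21 chains rose and 11 fell, against 37.1% and 27.2% of all symbols, and 32 of 43 changed in either direction beside 64.4% of all symbols. Fitted changes of 2-fold or more were 19 rises, beside 20.1% of all symbols, and 8 falls, beside 13.1%. Of these, the rise of COL6A5 and the fall of COL1A2 lay below the floor in both groups, and the rise of COL9A1, from below the floor, is bounded only as at least 1.02-fold. The median difference was 1.16 over the chains, or 0.17 with means below the floor set to it, and 0.11 over all symbols. For 28 of the 32 called chains the groups did not overlap, and how often this held over all called symbols was not counted. Over all symbols, 57.7% of calls were rises (7487 against 5490), and 47.2% after quantile normalization (6201 against 6940), which moved the median difference of 11167 expressed genes by -0.17 in this comparison. Both comparisons use the 6 vector libraries, so their values are set side by side and not correlated.

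**Figure D2:**
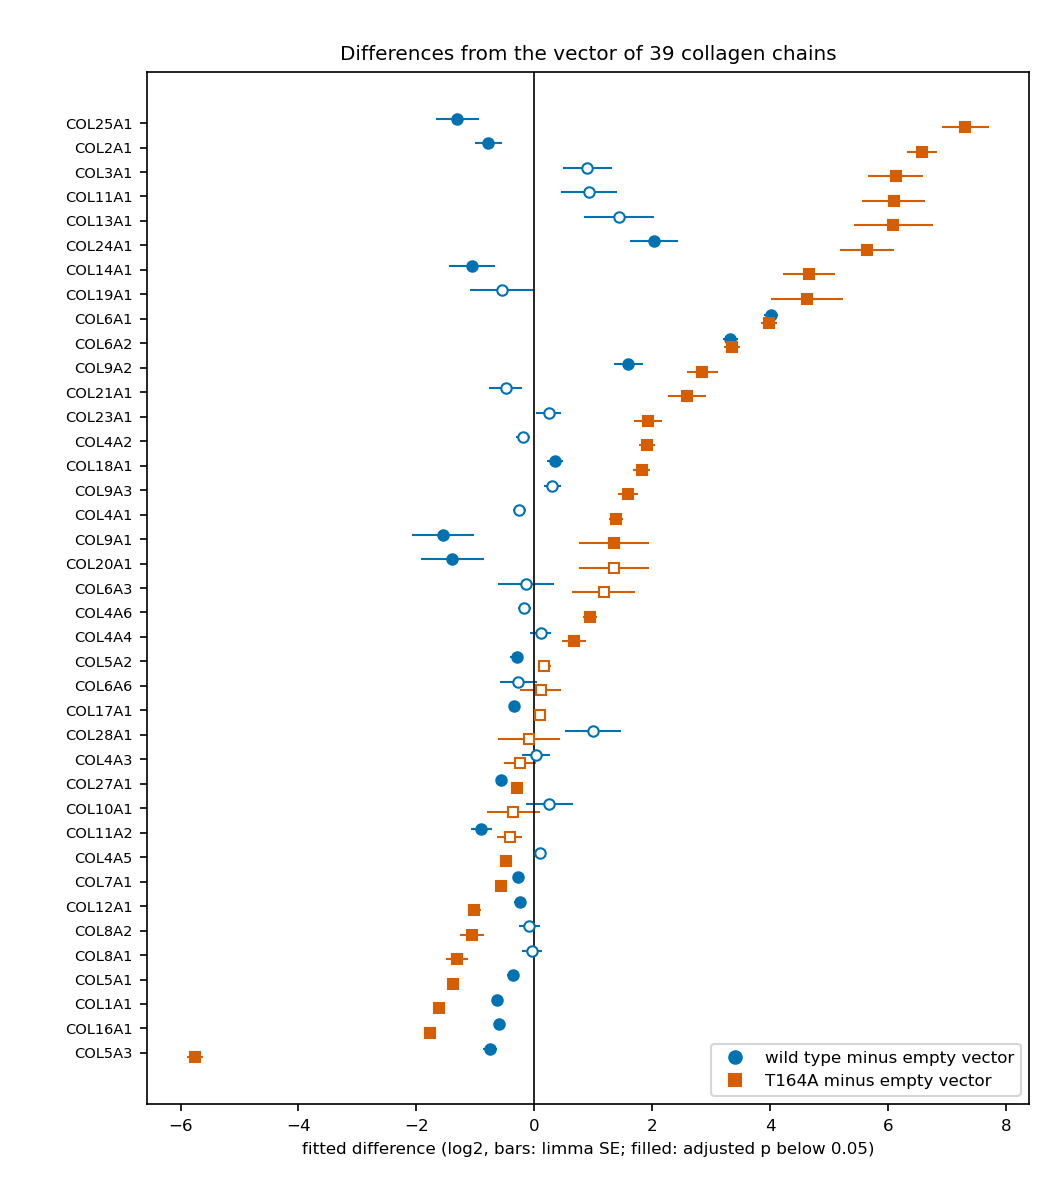
Fitted difference (log2, x axis) of wild type minus vector (blue circles) and T164A minus vector (orange squares) for the 39 chains that reached the floor in a group, with the limma SE as bars and filled symbols for adjusted p below 0.05. For chains below the floor in a group the plotted difference is the fitted value and no bound. The circles and squares coincide at COL6A1 and COL6A2, and lie far apart at COL25A1, COL2A1 and COL5A3.

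Type VI collagen rose in both engineered groups, through COL6A1 and COL6A2, which encode chains of the same beaded filament. COL6A1 ranged from 6.21 to 6.93 (median 6.79) in the 6 vector libraries and from 10.11 to 10.94 (median 10.82) in the 6 wild-type libraries, and stood at 10.76, 10.78, 10.43 and 10.75 in the 4 T164A libraries. Every engineered library thus lay over 3 units above the highest vector library. COL6A1 rose by 4.01 (SE 0.12, 16.2-fold, limma adjusted p = 4e-19) in wild type and by 3.98 (SE 0.13, 15.7-fold, adjusted p = 8.77e-19) in T164A. COL6A2 ranged from 5.99 to 6.49 (median 6.19) in vector and from 8.86 to 9.74 (median 9.70) in wild type, and stood at 9.64, 9.58, 9.31 and 9.71 in T164A. Its rise was 3.33 (SE 0.12, 10.04-fold, limma adjusted p = 3.73e-17) in wild type and 3.36 (SE 0.14, 10.3-fold, adjusted p = 4.56e-17) in T164A. Wild-type replicate 14 and T164A replicate 93 were the lowest libraries of their groups for each of these chains, and still lay above every vector library.

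The direct differences between wild type and T164A were 0.04 (SE 0.13, limma adjusted p = 0.842) for COL6A1 and -0.03 (SE 0.14, adjusted p = 0.871) for COL6A2, and the groups overlapped. The third chain of the classical molecule, COL6A3, did not follow. It lay at 1.30 ± 0.92 (n = 6) in vector and 1.15 ± 0.70 (n = 6) in wild type, below the floor, and at 2.48 ± 0.76 (n = 4) in T164A. Its difference between T164A and vector missed the threshold (limma adjusted p = 0.0569), and passed it when vector replicate 3, wild-type replicate 18 or T164A replicate 92 was left out (adjusted p = 0.0266 to 0.045). COL6A6, which is related to COL6A3, was at 3.79 ± 0.76, 3.52 ± 0.29 and 3.90 ± 0.29 in vector, wild type and T164A, with no call in any comparison unless both vector replicates 1 and 2 were left out (-0.74 in wild type, limma adjusted p = 0.0261). COL6A5 was below the floor throughout.

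The stretch upstream of COL6A2 is shown because this chain and COL6A1 rose together. It lies at chr21:46097862-46098096 on the + strand of GRCh38.p14 (RefSeq), outside annotated exons, with promoter motifs in capitals. The motifs searched on both strands were the GC box, spelled GGGCGG and bound by factors such as SP1. The second was the box spelled CCAAT, and the last was the TATA box, spelled TATAAA. They share no letters in this window:
COL6A2: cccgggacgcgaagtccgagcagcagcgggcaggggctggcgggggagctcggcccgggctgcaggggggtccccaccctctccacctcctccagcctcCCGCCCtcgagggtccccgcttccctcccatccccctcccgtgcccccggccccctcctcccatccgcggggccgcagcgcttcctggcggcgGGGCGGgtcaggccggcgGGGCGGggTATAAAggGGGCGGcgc
It holds 4 GC boxes and 1 TATA box. Among all RefSeq promoter windows of this length, 42.0% hold a GC box and 10.1% a TATA box. A match describes the letters and is no evidence of binding.

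**Figure D3:**
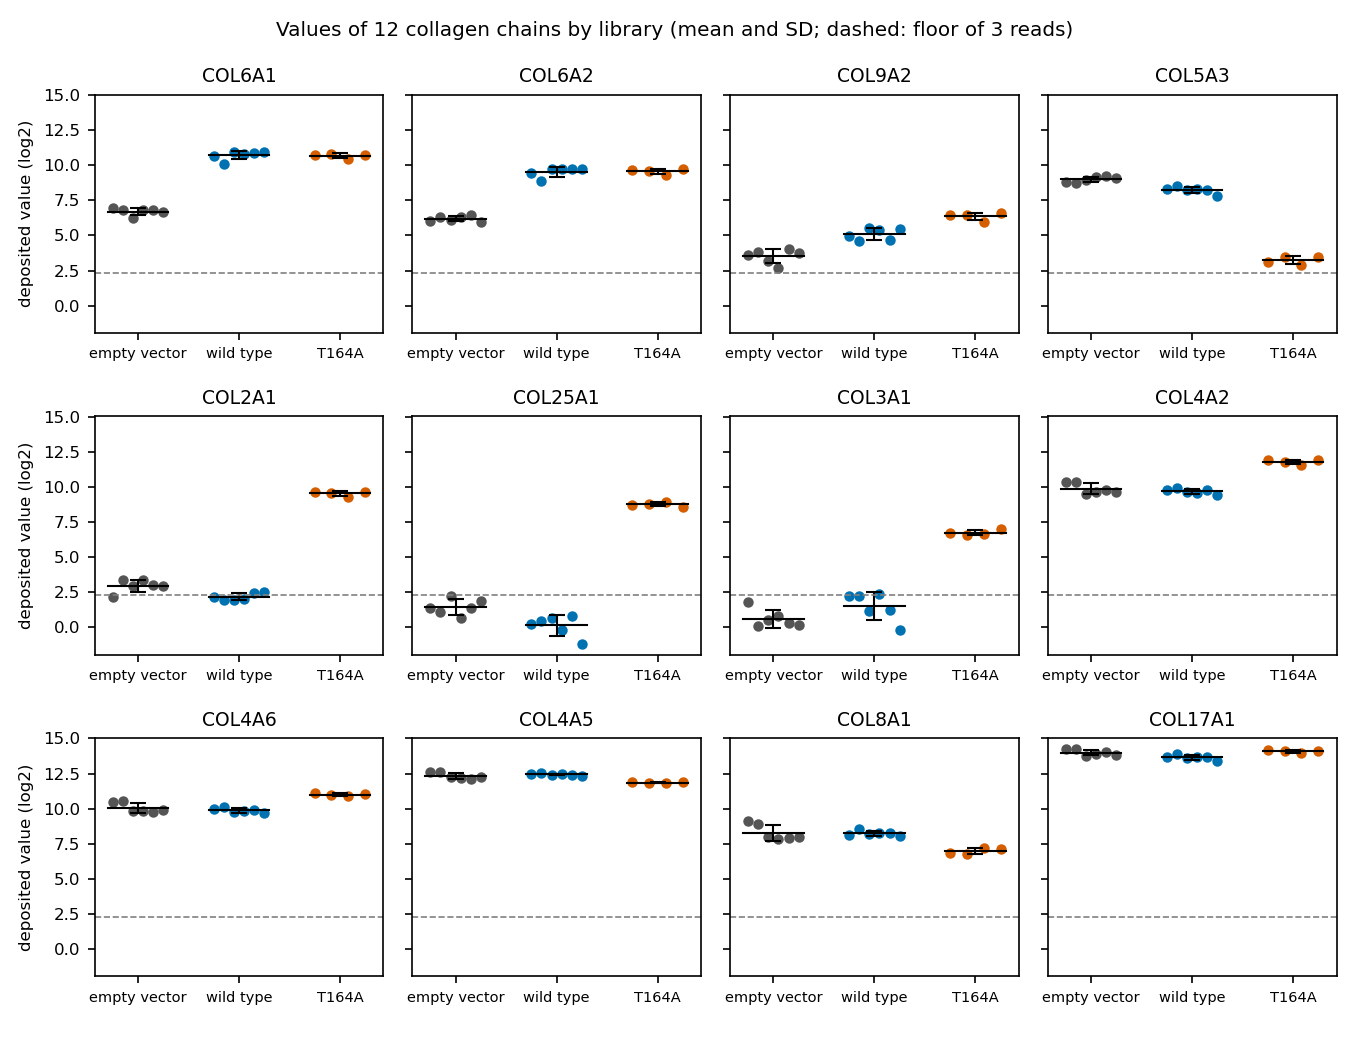
Deposited log2 value (y axis) of 12 collagen chains in each library of the empty vector (grey), wild-type (blue) and T164A (orange) groups, with the mean and SD of the group as bars and the floor of 3 reads as a dashed line. COL6A1 and COL6A2 are high in both engineered groups, COL9A2 steps up from vector to wild type to T164A, COL5A3 drops in T164A, and COL2A1, COL25A1 and COL3A1 lie far above the floor in the T164A libraries and near or below it in the others.

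The collagens of the hemidesmosome and the anchoring fibril moved little by comparison. COL17A1 ranged from 13.78 to 14.26 (median 13.94) in vector and from 13.38 to 13.90 (median 13.66) in wild type, and stood at 14.15, 14.11, 13.96 and 14.14 in T164A. The wild-type and vector ranges overlapped, and the T164A libraries lay within the vector range. COL17A1 fell by 0.34 (SE 0.08, limma adjusted p = 0.00147) in wild type, and its difference of 0.09 (SE 0.09, adjusted p = 0.44) in T164A was no call, though it was 0.21 (adjusted p = 0.0329) without both vector replicates 1 and 2. COL7A1 ranged from 13.88 to 14.13 (median 14.06) in vector and from 13.44 to 13.95 (median 13.77) in wild type, and stood at 13.66, 13.42, 13.14 and 13.64 in T164A. It fell by 0.28 (SE 0.09, limma adjusted p = 0.00862) in wild type and by 0.56 (SE 0.10, adjusted p = 9.4e-06) in T164A, where no library reached the vector range. COL17A1 was lower in wild type than in T164A by 0.43 (SE 0.09, limma adjusted p = 2.6e-04), without overlap, a call that ended with a minimum fold of 1.2 (adjusted p = 0.0845) or close libraries averaged (-0.29, adjusted p = 0.16). COL7A1 was higher in wild type than in T164A by 0.28 (adjusted p = 0.0115), a call that ended without T164A replicate 93 (0.18, limma adjusted p = 0.0828) or with a minimum fold of 1.2 (0.606). The falls of COL17A1 and COL7A1 in wild type ended when close libraries of a group were averaged (adjusted p = 0.239 and 0.488) or a minimum fold of 1.2 was required (0.471 and 0.835), and that of COL7A1 also under quantile normalization (0.239) or without both vector replicates 1 and 2 (0.0548). Beside them, 6 of 8 genes of the hemidesmosome list fell and 1 rose in wild type, where 24.5% and 21.0% of all symbols did, and 4 fell and 2 rose in T164A, where 27.2% and 37.1% did.

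Among the network-forming collagens, none of 9 chains passed the test in wild type, beside 45.5% of all symbols. Of these 9, 4 rose and 3 fell in T164A, beside 37.1% and 27.2% of all symbols. T164A cells had a changed balance of the type IV chains. COL4A1 and COL4A2 encode the chains of the common type IV molecule of basement membranes. COL4A1 ranged from 9.16 to 9.87 (median 9.31) in vector and from 8.95 to 9.49 (median 9.18) in wild type, and stood at 10.95, 10.78, 10.71 and 10.92 in T164A. COL4A2 ranged from 9.51 to 10.36 (median 9.73) in vector and from 9.41 to 9.96 (median 9.69) in wild type, and stood at 11.89, 11.80, 11.60 and 11.90 in T164A. The T164A libraries exceeded all others for these chains. COL4A1 rose by 1.39 (SE 0.12, 2.62-fold, limma adjusted p = 1.28e-10) and COL4A2 by 1.91 (SE 0.13, 3.77-fold, adjusted p = 1.39e-12) in T164A. In wild type, COL4A1 differed by -0.25 (limma adjusted p = 0.059), which passed the threshold without vector replicate 3, 5 or 6 or wild-type replicate 14 (-0.31 to -0.29, adjusted p = 0.0197 to 0.0401).

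COL4A5 and COL4A6 encode chains that assemble with each other and are neighbours on chromosome X. COL4A5 ranged from 12.15 to 12.64 (median 12.25) in vector and from 12.34 to 12.52 (median 12.44) in wild type, and stood at 11.87, 11.83, 11.86 and 11.90 in T164A. COL4A6 ranged from 9.76 to 10.52 (median 9.89) in vector and from 9.71 to 10.15 (median 9.88) in wild type, and stood at 11.12, 10.95, 10.91 and 11.07 in T164A. The partners moved in opposite directions in T164A, without overlap with vector or wild type in either case. COL4A5 fell by 0.48 (SE 0.08, limma adjusted p = 8.85e-06) and COL4A6 rose by 0.95 (SE 0.12, adjusted p = 2.08e-07) in T164A. COL4A5 differed by 0.09 (limma adjusted p = 0.339) in wild type, and by 0.23 (adjusted p = 0.00067) without both vector replicates 1 and 2.

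Set within a library, COL4A6 was 2.28 ± 0.14 units below COL4A5 in vector (range -2.40 to -2.10, n = 6), 2.54 ± 0.11 below in wild type (-2.66 to -2.37, n = 6) and 0.85 ± 0.08 below in T164A (-0.94 to -0.75, n = 4). These are differences of uncorrected levels. The T164A libraries did not overlap with the other groups. COL4A2 exceeded COL4A1 by 0.43 ± 0.12 in vector, 0.50 ± 0.08 in wild type and 0.96 ± 0.06 in T164A, again with the T164A libraries above all others (0.88 to 1.02 against 0.30 to 0.62). These pair differences were not tested.

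The type IV genes are arranged head to head. In RefSeq (GRCh38.p14), the starts of COL4A1 and COL4A2 lie 127 bases apart on chromosome 13, those of COL4A4 and COL4A3 lie 419 bases apart on chromosome 2, and COL4A6 has starts 380 and 1416 bases from that of COL4A5. The sequences between them are shown because the COL4A1 and COL4A2 pair rose together in T164A and the COL4A5 and COL4A6 pair moved apart. They are 30 bases between COL4A1 and COL4A2 (chr13:110307167-110307196, + strand), the window upstream of COL4A5 (chrX:108439588-108439837, + strand) and the window upstream of the farther COL4A6 start (chrX:108438431-108438672, - strand), with the same motifs in capitals:
COL4A1 to COL4A2: gggccgagctccCCAATttgttggcgctgc
COL4A5: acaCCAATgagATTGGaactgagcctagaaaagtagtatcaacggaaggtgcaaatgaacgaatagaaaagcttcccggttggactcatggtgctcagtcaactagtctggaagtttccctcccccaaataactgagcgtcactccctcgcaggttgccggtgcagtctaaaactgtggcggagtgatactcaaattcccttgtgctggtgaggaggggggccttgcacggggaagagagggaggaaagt
COL4A6: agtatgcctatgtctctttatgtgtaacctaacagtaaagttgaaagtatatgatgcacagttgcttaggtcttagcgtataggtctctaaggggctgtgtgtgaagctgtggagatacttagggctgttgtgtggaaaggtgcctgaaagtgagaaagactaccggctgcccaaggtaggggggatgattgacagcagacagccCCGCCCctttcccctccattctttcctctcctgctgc
The stretch between COL4A1 and COL4A2 holds 1 CCAAT box. Its 30 bases were chosen around that box, so no share of other windows is set beside it. The COL4A6 window, of 242 bases, holds 1 GC box and no CCAAT box, where 42.3% and 31.4% of all windows of that length hold one. The COL4A5 window, of 250 bases, holds 2 CCAAT boxes and no GC box. Among all windows of 250 bases, 42.6% hold a GC box, 32.0% a CCAAT box and 10.7% a TATA box. Over the 31 chains found in the RefSeq promoter table, with 43 windows, 24 windows held a GC box, 12 a CCAAT box and 8 a TATA box.

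**Figure D4:**
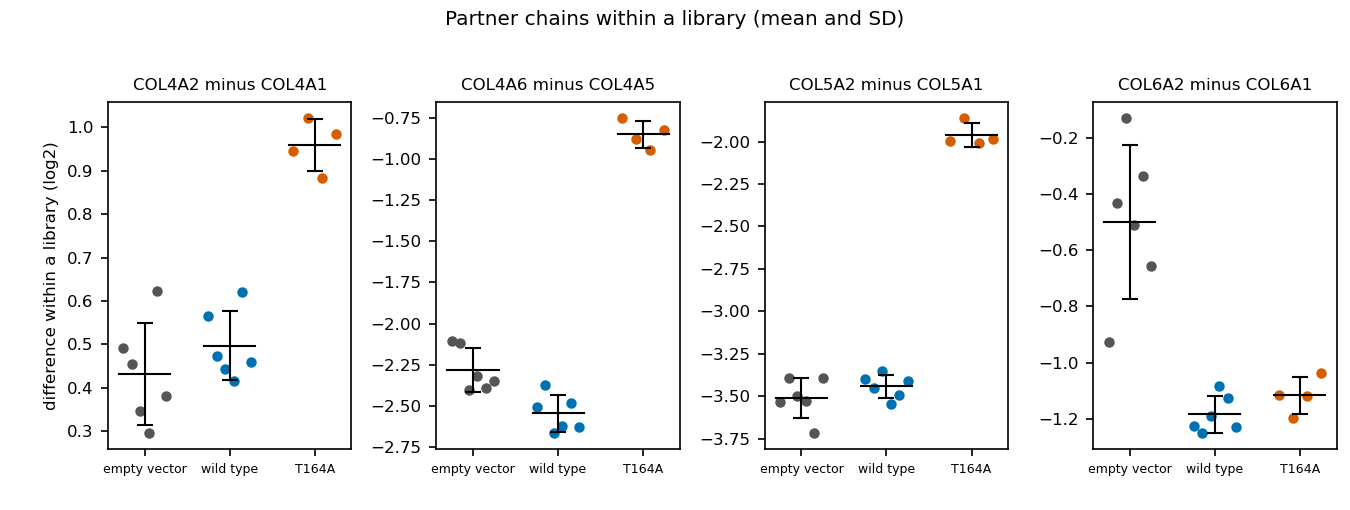
Difference between partner chains within a library (log2, y axis, a scale for each panel) for 4 pairs, with points for libraries and bars for the mean and SD of each group. In the COL4A2 minus COL4A1, COL4A6 minus COL4A5 and COL5A2 minus COL5A1 panels the 4 T164A libraries lie above all others, and in the COL6A2 minus COL6A1 panel both engineered groups lie below every vector library.

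The remaining network chains were less abundant. COL4A3 and COL4A4, the chains known from the kidney glomerulus, stood at 4.33 ± 0.15 and 5.26 ± 0.28 in vector (n = 6), at 4.35 ± 0.30 and 5.37 ± 0.32 in wild type (n = 6) and at 4.09 ± 0.63 and 5.93 ± 0.25 in T164A (n = 4). COL4A4 rose by 0.67 in T164A (SE 0.20, limma adjusted p = 0.00405), and the difference was -0.011 after quantile normalization (adjusted p = 0.97), so its direction depends on the scaling. COL8A1, a short-chain collagen of vessel walls and the eye, stood at 9.10 and 8.92 in vector replicates 1 and 2 and at 7.87 to 7.99 in the other 4. It ranged from 8.07 to 8.54 (median 8.24) in wild type, and stood at 6.82, 6.75, 7.24 and 7.11 in T164A. The fall in T164A was 1.31 (SE 0.19, 2.49-fold, limma adjusted p = 9.51e-07), and the difference of -0.05 in wild type turned to 0.31 (adjusted p = 0.019) without both vector replicates 1 and 2. Its partner COL8A2 fell by 1.06 in T164A (SE 0.20, from 5.60 to 4.54, limma adjusted p = 5.72e-05). COL10A1, the collagen of hypertrophic cartilage, was at 2.94 ± 0.49, 3.19 ± 0.89 and 2.59 ± 0.70 in vector, wild type and T164A, with no call.

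Of the 11 fibrillar chains, 8 fell and 1 (COL24A1) rose in wild type, beside 24.5% and 21.0% of all symbols. COL3A1 and COL11A1 had no call, and these and COL1A2, one of the falls, were below the floor in both groups. The falls of COL5A1, COL5A2, COL2A1 and COL11A2 ended when close libraries were averaged. In T164A, 5 fell and 4 rose, beside 27.2% and 37.1% of all symbols, and the rises started from near or below the floor while 4 of the 5 falls were from the level of expressed chains. COL5A1 and COL1A1, the most abundant per kilobase in vector, were among the falls.

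COL5A3, a chain of type V collagen, had the largest fall of the 43 chains in T164A. It ranged from 8.73 to 9.24 (median 9.02) in vector and from 7.80 to 8.51 (median 8.28) in wild type, and stood at 3.14, 3.46, 2.87 and 3.48 in T164A. All T164A libraries were near the floor, and the 3 groups did not overlap. The fall was 0.75 (SE 0.12, 1.69-fold, limma adjusted p = 1.54e-05) in wild type and 5.75 (SE 0.14, 53.8-fold, adjusted p = 1.27e-21) in T164A. The window upstream of COL5A3 is shown for that reason (chr19:10010505-10010754, - strand, GRCh38.p14, RefSeq, motifs in capitals as before):
COL5A3: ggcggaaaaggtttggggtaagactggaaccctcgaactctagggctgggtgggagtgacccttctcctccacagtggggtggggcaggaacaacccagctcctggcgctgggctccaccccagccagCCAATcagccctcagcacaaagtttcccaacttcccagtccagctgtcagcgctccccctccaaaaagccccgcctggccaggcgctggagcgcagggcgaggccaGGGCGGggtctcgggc
It holds 1 GC box and 1 CCAAT box and no TATA box.

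COL5A1, the main type V chain, ranged from 11.16 to 11.60 (median 11.38) in vector and from 10.75 to 11.33 (median 10.99) in wild type, and stood at 10.18, 9.95, 9.77 and 10.11 in T164A. The T164A libraries lay below all others. COL5A1 fell by 0.37 (SE 0.09, limma adjusted p = 0.00122) in wild type, a call that ended when close libraries were averaged (adjusted p = 0.199) or a minimum fold was required (0.373), and by 1.38 (SE 0.10, 2.60-fold, adjusted p = 2.85e-12) in T164A. Its partner COL5A2 was at 7.87 ± 0.21, 7.57 ± 0.18 and 8.04 ± 0.19 in vector, wild type and T164A. COL5A2 fell by 0.30 in wild type (limma adjusted p = 0.0207), a call that ended without vector replicate 1 or 2 or wild-type replicate 18 (-0.26 to -0.23, adjusted p = 0.0558 to 0.0684), with a minimum fold (0.769) or with close libraries averaged (-0.16, 0.592), and differed by 0.17 in T164A (adjusted p = 0.211), or by -0.18 after quantile normalization. Within a library COL5A2 lay 3.51 ± 0.12 units below COL5A1 in vector, 3.44 ± 0.07 below in wild type and 1.96 ± 0.07 below in T164A.

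COL1A1, a chain of type I collagen, ranged from 10.54 to 11.08 (median 10.92) in vector and from 9.94 to 10.43 (median 10.24) in wild type, and stood at 9.36, 9.24, 8.93 and 9.43 in T164A. No group overlapped with another. It fell by 0.63 (SE 0.10, 1.55-fold, limma adjusted p = 5.17e-06) in wild type and by 1.62 (SE 0.11, 3.07-fold, adjusted p = 5.04e-13) in T164A. COL1A2, the partner of COL1A1 in type I collagen, had a mean below the floor in every group, at 2.19 ± 0.51 in vector, 1.003 ± 0.72 in wild type and 0.42 ± 1.23 in T164A, though 3 of 6 vector libraries lay above the floor. COL27A1 fell by 0.56 in wild type (from 10.76 to 10.20, limma adjusted p = 4.94e-07) and by 0.30 in T164A (to 10.46, adjusted p = 0.00217), the latter not past a minimum fold of 1.2 (adjusted p = 0.491).

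COL2A1, the main collagen of cartilage, behaved in the opposite way to COL5A3. It ranged from 2.20 to 3.38 (median 2.97) in vector and from 1.95 to 2.56 (median 2.09) in wild type, and stood at 9.62, 9.58, 9.31 and 9.66 in T164A. The T164A libraries were far above all others. COL2A1 rose by 6.58 (SE 0.25, 95.6-fold, limma adjusted p = 1.08e-17) in T164A. It fell by at least 0.66 in wild type (limma adjusted p = 0.00622), a low-level call that ended when only those groups were fitted (adjusted p = 0.0576), with a minimum fold (0.0748) or with close libraries averaged (0.0654).

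COL3A1, COL11A1 and COL24A1 lay below the floor in vector and were detected in T164A. COL3A1, the partner of type I in many tissues, stood at 6.76, 6.61, 6.68 and 6.98 in T164A, at least 21.9-fold above vector (limma adjusted p = 9.44e-12). COL11A1, a minor chain of cartilage fibrils, stood at 5.95, 5.76, 5.82 and 5.90, at least 11.7-fold above vector (limma adjusted p = 1.46e-10). COL24A1 stood at 6.57, 6.31, 6.35 and 6.17, at least 16.5-fold above vector (limma adjusted p = 2.51e-11). No vector or wild-type library reached these levels. In wild type COL24A1 also rose, to 2.73 ± 0.56 (n = 6), at least 1.35-fold above the floor (limma adjusted p = 1.72e-04), while COL3A1 and COL11A1 were below the floor in vector and wild type. COL11A2 fell by 0.90 in wild type (from 6.06 to 5.16, SE 0.18, limma adjusted p = 2.33e-04), without overlap, and not when its 7 rows were averaged (-0.43, adjusted p = 0.371) or close libraries were averaged (-0.76, adjusted p = 0.0522). In T164A COL11A2 differed by -0.42 (limma adjusted p = 0.0802), which passed the threshold without vector replicate 1 (-0.51, adjusted p = 0.0359).

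Beside these fibrillar changes, 8 fibroblast markers were examined. Their summed level was 9.57 to 9.96 in vector, 8.98 to 9.33 in wild type and 10.6 to 10.9 in T164A. FBLN1 made up most of it, at 9.51 to 9.90 in vector, 8.87 to 9.24 in wild type and 10.549 to 10.875 in T164A. In T164A, 4 of 8 rose (FBLN1, LUM, PDGFRA and PDGFRB) and FAP fell, beside 37.1% and 27.2% of all symbols. DCN lay below the floor in the mean of every group, POSTN lay below it in every T164A library, and LUM and PDGFRA in every vector and wild-type library. The part of these markers in the collagen changes was not tested.

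Of the 10 FACIT chains, 6 rose and 2 fell in T164A, beside 37.1% and 27.2% of all symbols, and COL9A1, one of the 6, remained at the floor. In wild type 1 rose and 5 fell, beside 21.0% and 24.5%, 3 of those 5 below the floor in both groups. COL16A1, the most abundant of them per kilobase in vector, ranged from 11.35 to 11.56 (median 11.45) in vector and from 10.55 to 11.10 (median 10.86) in wild type, and stood at 9.86, 9.64, 9.38 and 9.81 in T164A. The groups were separate and in that order. It fell by 0.60 (SE 0.08, 1.51-fold, limma adjusted p = 7e-07) in wild type and by 1.77 (SE 0.09, 3.42-fold, adjusted p = 1.86e-15) in T164A. COL12A1 fell by 1.02 in T164A (SE 0.11, from 10.79 to 9.77, 2.03-fold, limma adjusted p = 6.99e-09). Its fall of 0.24 in wild type (limma adjusted p = 0.0496) ended without vector replicate 1, 2 or 3, wild-type replicate 13, 15, 16, 17 or 18, or T164A replicate 91 or 94, each left out alone (-0.25 to -0.18, adjusted p = 0.0502 to 0.143), and under 6 other alternatives (-0.24 to -0.096, adjusted p = 0.0575 to 0.989).

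Type IX collagen, which coats cartilage fibrils, is built from COL9A1, COL9A2 and COL9A3. COL9A2 ranged from 2.68 to 4.05 (median 3.66) in vector and from 4.58 to 5.56 (median 5.19) in wild type, and stood at 6.43, 6.43, 5.98 and 6.60 in T164A. The groups did not overlap. COL9A2 rose by 1.60 (SE 0.24, 3.03-fold, limma adjusted p = 4.16e-06) in wild type and by 2.85 (SE 0.27, 7.22-fold, adjusted p = 4.77e-10) in T164A. COL9A3 rose by 1.59 in T164A (SE 0.17, from 5.32 to 6.91, 3.02-fold, limma adjusted p = 3.89e-09). In wild type COL9A3 differed by 0.31 (limma adjusted p = 0.0983), a difference that passed without vector replicate 6 (0.38, adjusted p = 0.0485) and turned to -0.052 after quantile normalization. COL9A1 remained at the floor: its mean was 2.33 ± 0.50 in T164A, its nominal rise (limma adjusted p = 0.0482) ended without vector replicate 2, 4 or 5, wild-type replicate 13, 14 or 16, or T164A replicate 91, 92 or 94 (1.04 to 1.45, adjusted p = 0.051 to 0.138), and its bound was at least 1.02-fold higher.

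COL14A1, COL19A1 and COL21A1 also rose in T164A. COL14A1, a fibril-associated chain of dense connective tissue, stood at 6.91, 6.70, 6.62 and 6.55 in T164A and under the floor in all 6 vector libraries, at least 21.0-fold lower (limma adjusted p = 5.13e-10). COL19A1 stood at 5.002, 5.15, 4.52 and 4.81 in T164A, at least 5.94-fold above vector (limma adjusted p = 1.86e-07). COL21A1 stood at 5.92, 5.41, 5.91 and 5.62 in T164A against 2.48 to 3.45 (median 3.27) in vector, a rise of 2.59 (SE 0.32, 6.03-fold, limma adjusted p = 5.57e-08). No T164A library overlapped with vector for these chains. In wild type COL21A1 ranged from 2.16 to 3.68 (median 2.48) and differed by -0.49 (limma adjusted p = 0.175), which passed without wild-type replicate 13 (-0.69, adjusted p = 0.0364). COL20A1 was at 1.63 ± 0.71 in vector, 0.23 ± 1.33 in wild type and 2.98 ± 0.61 in T164A. Its rise in T164A missed the threshold (limma adjusted p = 0.0511) and passed it without vector replicate 1 or 5, wild-type replicate 13, 14 or 18, or T164A replicate 92 (adjusted p = 0.0255 to 0.0493). COL22A1 was below the floor throughout.

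Apart from COL17A1, the transmembrane collagens rose in T164A. COL25A1, known from neurons and motor innervation, ranged from 0.68 to 2.22 (median 1.41) in vector and from -1.16 to 0.85 (median 0.36) in wild type, and stood at 8.75, 8.79, 8.93 and 8.59 in T164A. No vector or wild-type library reached the floor, so the rise was at least 88.2-fold (limma adjusted p = 1.24e-14). COL13A1, a transmembrane collagen of adhesion sites and the neuromuscular junction, stood at 7.16, 6.88, 6.99 and 7.37 in T164A, at least 27.8-fold above vector (limma adjusted p = 8.71e-09). In wild type COL13A1 lay at 2.45 ± 0.25, a difference that missed the threshold (limma adjusted p = 0.0519) and passed without vector replicate 3, 5 or 6 (adjusted p = 0.0126 to 0.0342). COL23A1 rose by 1.93 in T164A (SE 0.24, from 4.15 to 6.08, 3.82-fold, limma adjusted p = 6.78e-08), and its difference of 0.24 in wild type turned to -0.16 after quantile normalization.

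COL18A1, the basement membrane collagen whose end fragment is endostatin, rose in each engineered group. It ranged from 8.46 to 9.59 (median 8.87) in vector and from 9.10 to 9.44 (median 9.33) in wild type, and stood at 10.99, 10.77, 10.45 and 10.90 in T164A. The wild-type libraries lay within the vector range, in which replicates 1 and 2 were highest at 9.59 and 9.28, and the T164A libraries lay above all others. The rise was 1.82 (SE 0.15, 3.54-fold, limma adjusted p = 2.5e-11) in T164A. The rise of 0.36 in wild type (limma adjusted p = 0.0287) ended without vector replicate 3, 4 or 6 or wild-type replicate 13 or 17 (0.26 to 0.34, adjusted p = 0.0566 to 0.0982), without a variance trend (0.0965), with a minimum fold (0.596) or with close libraries averaged (0.305). COL15A1, the related chain, was below the floor in every group. COL28A1 was at 1.92 ± 1.33 in vector, 2.92 ± 0.35 in wild type and 1.83 ± 0.41 in T164A, with no call between engineered cells and vector (limma adjusted p = 0.0898 and 0.9), though wild type passed without vector replicate 1 (adjusted p = 0.0382).

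The third comparison set the wild-type construct directly against the T164A mutant. Of the 43 chains, 9 were higher and 24 lower in wild type, beside 26.7% and 35.1% of all symbols, and 33 differed in either direction beside 61.8%. The median difference was -0.57 over the chains, or -0.38 with means below the floor set to it, and -0.08 over all symbols. The 2 chains that rose most in wild type, COL6A1 and COL6A2, were among the 10 without a call. COL5A3 was higher in wild type by 4.998 (SE 0.14, 32.0-fold, limma adjusted p = 2.58e-20), followed by COL8A1 at 1.27, COL16A1 at 1.18 and COL5A1 at 1.01. COL4A5 was higher by 0.58 (SE 0.08, limma adjusted p = 7.42e-07) while COL4A6, COL4A2 and COL4A1 were lower (-1.12, -2.11 and -1.64). COL2A1 was at least 151-fold lower in wild type (limma adjusted p = 1.71e-18) and COL25A1 at least 88.2-fold lower (adjusted p = 7.25e-16). Of the smaller calls, that of COL11A2 (-0.48, limma adjusted p = 0.0465) ended without vector replicate 3 or 4, wild-type replicate 15, 17 or 18, or T164A replicate 91, 92 or 94 (adjusted p = 0.0524 to 0.112), that of COL6A3 (limma adjusted p = 0.0342) without wild-type replicate 14 or 18 or T164A replicate 91, 93 or 94 (0.0503 to 0.133), and that of COL4A4 (-0.57, adjusted p = 0.0148) without T164A replicate 91 (-0.50, 0.0553). The calls of COL11A2 and COL4A4 also ended with quantile normalization, a minimum fold or close libraries averaged, and that of COL6A3 with quantile normalization, library weights or a minimum fold. COL28A1, not called (limma adjusted p = 0.078), passed without vector replicate 2 (adjusted p = 0.032).

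Genes that make, fold and export collagen were examined from a list of 20, of which 18 were measured. In T164A, 13 rose and 1 fell, beside 37.1% and 27.2% of all symbols, with a median difference of 0.92. In wild type 8 rose and 5 fell, beside 21.0% and 24.5%, with a median of 0.19, or 0.028 with means below the floor set to it. FKBP10, a chaperone and prolyl isomerase of procollagen, rose in both groups, from 11.03 ± 0.09 in vector (n = 6) to 12.15 ± 0.18 in wild type (n = 6) and 12.81 ± 0.16 in T164A (n = 4). P4HA1, a catalytic subunit of prolyl 4-hydroxylase, rose by 1.74 in wild type (3.33-fold, limma adjusted p = 7.1e-15) and by 1.07 in T164A, while its paralogue P4HA2 fell by 0.48 and by 1.27. MIA3, which carries procollagen out of the endoplasmic reticulum, rose by 1.47 in wild type and by 0.43 in T164A. PPIB, a prolyl isomerase of the prolyl 3-hydroxylation complex, rose by 1.43 in wild type and by 1.16 in T164A. LEPREL2 (now P3H3), a prolyl 3-hydroxylase family member, rose by 2.67 in T164A (6.34-fold, limma adjusted p = 2.79e-15), and CRTAP, of the prolyl 3-hydroxylase complex, rose by 1.36. SERPINH1, the collagen chaperone HSP47, fell by 0.41 in wild type and rose by 1.23 in T164A.

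Genes of procollagen cleavage and cross-linking were on a list of 15, all measured. In T164A, 11 rose and 2 fell, where 37.1% and 27.2% of all symbols did, with a median difference of 2.004. In wild type 1 rose and 4 fell, where 21.0% and 24.5% did, with a median of -0.23, or -0.11 with means below the floor set to it. SPARC, a collagen-binding matrix protein, rose from 7.02 ± 0.25 in vector to 10.48 ± 0.07 in T164A (10.96-fold, limma adjusted p = 2.14e-18), with wild type at 6.79 ± 0.23. ADAMTS3, a procollagen N-proteinase, rose by 4.55 in T164A (23.4-fold, limma adjusted p = 5.35e-16), and PCOLCE2, an enhancer of procollagen C-proteinase, by 2.92. The falls in T164A were those of ADAMTS14, another N-proteinase, by 3.64 (12.5-fold, limma adjusted p = 1.11e-20), and BMP1, the C-proteinase itself, by 1.26. In wild type ADAMTS14 and BMP1 fell by 0.53 and 0.48, LOXL1, a cross-linking oxidase, fell by 0.36, and PCOLCE rose by 0.54 (limma adjusted p = 8.86e-04).

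**Figure D5:**
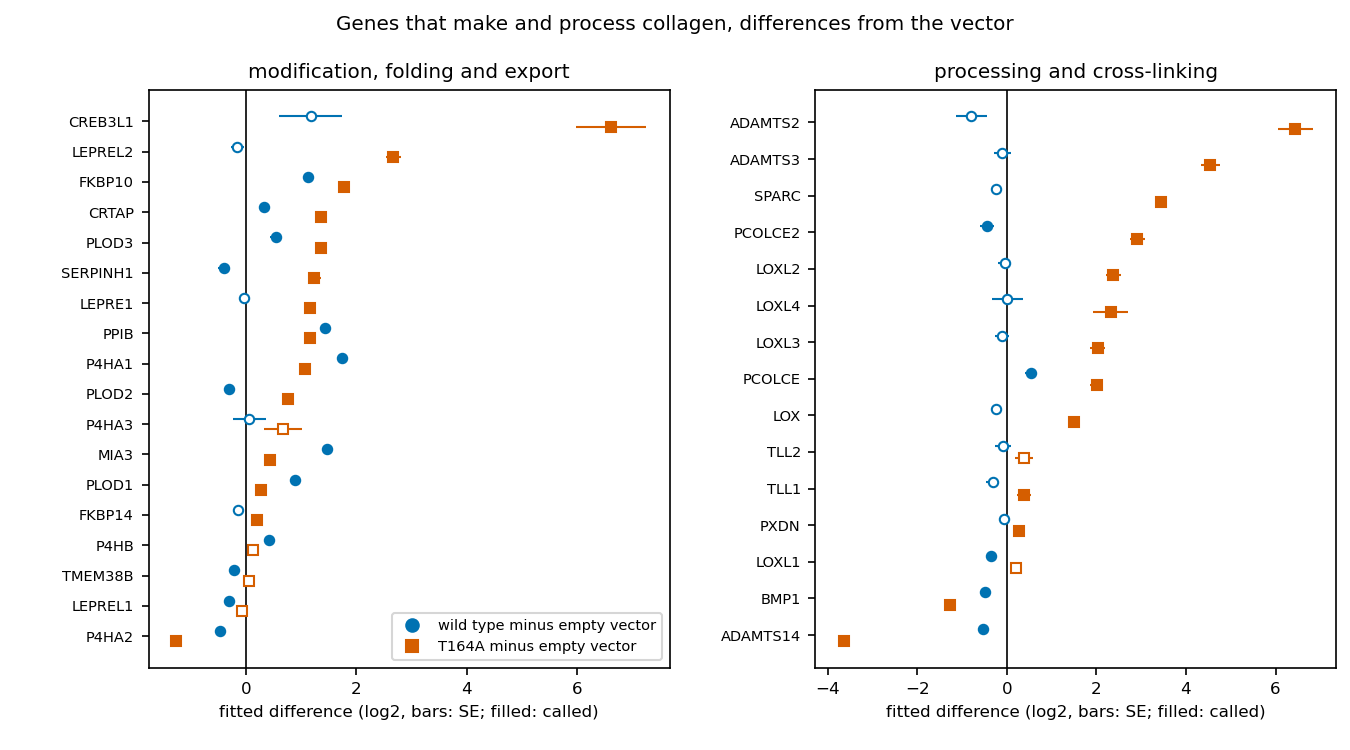
Fitted difference (log2, x axis) of wild type minus vector (blue circles) and T164A minus vector (orange squares) for the genes of collagen modification, folding and export (left) and of processing and cross-linking (right), with the limma SE as bars and filled symbols for adjusted p below 0.05. Most orange squares lie right of 0 in both panels, with P4HA2, BMP1 and ADAMTS14 on the left; fitted values of genes near the floor, such as CREB3L1 and ADAMTS2, are no bounds.

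Of 11 receptors of collagen, all measured, 2 rose and 5 fell in wild type (beside 21.0% and 24.5% of all symbols), and 2 rose and 3 fell in T164A (beside 37.1% and 27.2%). DDR1 and DDR2 are tyrosine kinases activated by collagen, DDR1 being the epithelial and DDR2 the mesenchymal form. DDR1 fell from 13.34 ± 0.11 in vector to 12.89 ± 0.08 in wild type (limma adjusted p = 4.05e-06) and 11.71 ± 0.20 in T164A (adjusted p = 3.15e-16). DDR2 ranged from 2.32 to 3.50 (median 2.75) in vector and from 3.30 to 4.43 (median 4.07) in wild type, and ranged from 9.37 to 9.54 in T164A, a rise of 6.57 (SE 0.25, 95.2-fold, limma adjusted p = 7.75e-18). The T164A libraries were thus far from both other groups for DDR2, and below both for DDR1. ITGA11, a collagen-binding integrin, rose at least 4.21-fold in T164A (limma adjusted p = 5.04e-05), GP6, the platelet collagen receptor, fell by 2.04 from a low level, and ITGA2, the epithelial collagen integrin, fell by 0.64 in wild type.

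Partners of the epithelial collagens in the hemidesmosome and basement membrane moved unevenly. ITGA6, the integrin that binds laminin beside type XVII collagen, fell by 0.54 in wild type. In T164A it fell by 2.03 (from 14.32 ± 0.04 to 12.29 ± 0.32, 4.07-fold, limma adjusted p = 1.82e-15). Its partner ITGB4 also fell in wild type, by 0.53, and rose by 0.69 in T164A. Of laminin chains of epithelial basement membranes, LAMB3 fell by 0.58 in wild type and by 1.67 in T164A, and LAMA3 rose by 0.41 in wild type. Of 8 other basement membrane genes, 2 rose and 3 fell in wild type, beside 21.0% and 24.5% of all symbols, and 5 rose and 2 fell in T164A, beside 37.1% and 27.2%. NID2, a nidogen that links laminin to type IV collagen, rose from 4.58 ± 0.46 in vector to 9.73 ± 0.09 in T164A (35.4-fold, limma adjusted p = 6.24e-17), with wild type at 4.71 ± 0.39. LAMB1 rose by 1.42 in T164A, and LAMB2 rose by 2.76 in wild type and by 1.58 in T164A, while LAMA5 fell by 0.55 and by 1.13.

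Within groups, the chains also showed which libraries stood apart. Of the chains with a group mean at or above the floor, wild-type replicate 14 lay above the range of the other 5 wild-type libraries for 15 chains, within it for 10 and below it for 5, and COL6A1 and COL6A2 were among those below. T164A replicate 93 lay below the range of the other 3 T164A libraries for 21 chains, within it for 12 and above it for 5. In vector, replicates 1 and 2 were the highest for COL4A1, COL4A2, COL4A4, COL4A5, COL4A6, COL5A1, COL5A2, COL8A1, COL12A1, COL17A1 and COL18A1. They stood at 9.86 and 9.87 against 9.16 to 9.36 for COL4A1 and at 10.51 and 10.52 against 9.76 to 9.91 for COL4A6. The same replicates were the lowest for COL1A1, COL5A3, COL6A6, COL11A2, COL16A1 and COL27A1. The SD of COL4A1 and COL4A6 was 0.33 and 0.35 in vector, against 0.17 and 0.16 in wild type.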

How the data were processed

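Per the labels' protocols, RNA was extracted with a MagMAX-96 kit, enriched for poly-A and prepared with a TruSeq kit for Illumina sequencing. The submitters' processing notes list GRCh37, DESeq, TopHat2 2.0.4, CASAVA 1.8.2 and Cufflinks 2.0.2, and no role for any of them. The authors deposited log2 values for 21594 rows in 16 libraries, and no source used here describes the transformation. Above 11, 100% of values lie within 0.05 of a step on the linear scale, as counts scaled by a size factor would, and these steps gave the estimated depths and the floor of 3 reads (2.07 to 2.48 by library). Between 10 and 10.5 only 8.38% to 11.6% do, and 4144 genes that averaged below 1 had a mean SD of 1.02 in vector, so counts could not be recovered for a count test. Floors cover counting error only.

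For symbols on several rows (304 symbols, 1732 rows), the row with the highest mean was kept. A single limma fit (limma 3.58.1, R 4.3.3) held all 16 libraries, with moderated variances that follow the mean level and 13 residual degrees of freedom. It gave 3 two-sided pairwise comparisons, Benjamini-Hochberg adjusted over 20166 symbols, and was first tested on simulated data. Where a group mean lay below the floor, the fold is a bound against it, and where both did, none is given. Levels per kilobase used the union of GENCODE exons (GRCh38), after an offset of 1.895 found with the steps was subtracted on the linear scale. Folds kept that offset, so folds of chains near the floor in a group would be larger without it. For vector and T164A, the log2 levels per kb were 6.36 and 0.28 for COL5A3, and 0.22 and 7.19 for COL2A1. Sequences come from RefSeq tables of GRCh38.p14, which is not the build of the files, and were matched by symbol.

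All 43 chains are accounted for. Of each other list, up to 4 called genes per comparison with the smallest p and no overlap between groups were named. The members and lists were chosen with earlier results of these data known. Alternatives planned were quantile normalization, removal of low symbols, fits of only the groups compared, a minimum fold of 1.2, a fit without the variance trend, library weights, averaged rows of repeated symbols, and leaving out each library. Leaving out vector replicates 1 and 2 together and averaging close libraries were added after seeing the data. The close libraries were vector 1 with 2, vector 3 with 4 and 6, the wild-type libraries other than 14, and the T164A libraries other than 93. Counting against paralogues or overlapping genes is not described. The gene of the construct and a further listed gene are not reported here.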

Additional observations from a re-analysis of the deposited data

Results flagged for a closer look

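In 4 of 96 groups of values, a library lay far from the others of its group by Dixon's criterion, which chance meets in about 1 in 20 groups. COL6A1 was at 10.11 in wild-type replicate 14, against 10.66 to 10.94 in the other wild-type libraries. COL6A2 was at 8.86 in the same library, against 9.44 to 9.74. COL6A1 was at 10.43 in T164A replicate 93, against 10.75 to 10.78 in the other T164A libraries. COL21A1 was at 3.68 in wild-type replicate 13, against 2.16 to 2.65. Groups with means below the floor were not checked.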

How the results depend on the processing

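Of 108 differences of single chains, 64 kept their direction and their side of the threshold under all 23 planned and 2 added alternatives that gave a value; the filter on low values left no value for the chains it removed. The 16 falls in wild type became 6 with a minimum fold of 1.2 and 4 with close libraries averaged, and 12 to 16 when a library was left out. The other counts stayed within 1.5 times under every alternative; when a library was left out, they were 4 to 7 rises in wild type, 19 to 23 rises and 11 to 12 falls in T164A, and 8 to 10 chains higher and 21 to 25 lower in wild type than in T164A. The cause was not tested. No paired analysis was possible because the groups share no replicate numbers.

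Of the differences that changed sign, only that of COL4A4 in T164A was called. In wild type against vector, quantile normalization gave -0.10 for COL10A1, -0.16 for COL23A1, -0.38 for COL4A3, -0.24 for COL4A4 and -0.052 for COL9A3. Without both vector replicates 1 and 2, COL4A2 was at 0.038, COL4A6 at 0.054, COL4A3 at -0.020 and COL8A1 at 0.31. COL8A1 was at 0.015 with library weights and 0.076 with close libraries averaged. When a library was left out, COL8A1 ranged from -0.13 to 0.12 and COL4A3 from -0.035 to 0.14. In T164A against vector, quantile normalization gave -0.011 for COL4A4, -0.18 for COL5A2 and -0.55 for COL6A6. COL6A6 was at -0.038 with library weights and -0.37 without both vector replicates, and COL4A3 at 0.057 with close libraries averaged. When a library was left out, COL6A6 ranged from -0.094 to 0.25 and COL4A3 from -0.50 to 0.013. In wild type against T164A, COL4A3 was at -0.030 and COL6A1 at -0.12 with close libraries averaged, and COL6A2 at 0.12 after quantile normalization. When a library was left out, COL6A1 ranged from -0.046 to 0.16 and COL6A2 from -0.11 to 0.10.

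Quantile normalization also brought COL11A2 (-1.09) and COL4A3 (-0.91) past the threshold in T164A, and COL8A2 (-0.42), COL21A1 (-0.84), COL4A1 (-0.29) and COL4A5 (0.18) in wild type. Below the floor, depth and the scatter of low values set what could be detected.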
